A study of Mus musculus with 2 samples.

Results

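Among single cells of mouse gliomas driven by PDGFB, 297 of 6784 kept cells held a transcript of at least 2 of 5 regional genes: Irx2, Irx3, Irx5, Pax3 and Hotairm1. These Irx/Pax3/Hotairm1 cells numbered 151 in pool 1 and 146 in pool 2. They were chosen as barcodes with 1 or more unique molecular identifiers (UMIs, each a tag on 1 captured transcript) for 2 or more of the 5 genes, among barcodes with at least 500 detected genes and at most 15% mitochondrial UMIs. Another 271 cells of pool 1 and 434 cells of pool 2 had exactly 1 of the genes, and 3084 cells of pool 1 and 2698 cells of pool 2 had none. The 5 genes were picked with measurements of these same cells, so their levels by number of genes are a description.

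All cells came from tumours of C57BL/6 mice in which PDGFB, a ligand of the PDGF receptors, had been introduced in utero into cells at the telencephalic ventricles. The mice were about 40 days old when tumours were collected, and cells carrying green fluorescent protein were sorted. Each of the 2 pools mixed 2 tumours before droplet capture, and 4000 cells were loaded per pool. There was 1 group and no normal tissue or untreated control, so the comparison was made between cells of the same pool. The labels do not say which tumour a cell came from, and a cell carries no mark of its tumour in the tables.

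Homeobox genes of the Iroquois (Irx), Pax and Hox families encode transcription factors that give neural progenitors a position along the head-to-tail and back-to-belly axes of the embryonic brain and spinal cord. Lhx2 and Emx2 are used by the telencephalon, En1 and En2 by the midbrain and anterior hindbrain, and Hox genes by the hindbrain and spinal cord. The mouse Iroquois genes lie in a cluster with Irx1 and Irx2 and a cluster with Irx3, Irx5 and Irx6. Pax3 is used by dorsal neural tube and neural crest, and Hotairm1 is a long noncoding RNA transcribed at the anterior end of the HoxA cluster.

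In GRCm38 with the GENCODE vM21 annotation, Irx2 lies at chr13:72628820-72634198 on the plus strand, and Irx1 at chr13:71957921-71963723 on the minus strand, 665.1 kb away. Irx3 lies at chr8:91798525-91802067 on the minus strand and Irx5 at chr8:92357625-92376286 on the plus strand, 555.6 kb apart. Pax3 lies at chr1:78101267-78197134 on the minus strand. Hotairm1 lies at chr6:52156902-52162119 on the plus strand. The strand setting of the counting is not given in the sources used here, so reads of Hotairm1 and of genes on the other strand there may not be told apart. The upstream sequences of Irx2, one of the 5 genes, and of Hoxa5, the Hox gene with the most UMIs in these cells, are shown as a gene inside the choice and a gene outside it, on different chromosomes. Each is the 250 bases before the RefSeq start on GRCm38.p6, at chr13:72628570-72628819 (plus strand) and chr6:52204588-52204837 (minus strand), with CpG dinucleotides in capitals.
Irx2: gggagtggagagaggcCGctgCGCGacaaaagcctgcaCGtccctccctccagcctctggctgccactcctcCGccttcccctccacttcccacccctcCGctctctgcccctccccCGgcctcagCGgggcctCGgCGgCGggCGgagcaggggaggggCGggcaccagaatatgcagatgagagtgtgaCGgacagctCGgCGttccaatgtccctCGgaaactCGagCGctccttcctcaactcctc
Hoxa5: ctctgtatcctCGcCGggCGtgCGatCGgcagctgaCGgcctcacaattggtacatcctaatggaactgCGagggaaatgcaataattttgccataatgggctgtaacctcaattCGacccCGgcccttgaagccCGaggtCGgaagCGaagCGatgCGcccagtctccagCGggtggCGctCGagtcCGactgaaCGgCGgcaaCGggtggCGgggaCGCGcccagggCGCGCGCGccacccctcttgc
The Irx2 window held 19 CpG and the Hoxa5 window 28, against a median of 6 in 32851 RefSeq windows of the same length. Fewer CpG were found in 80.3% of windows than in that of Irx2, and in 92.4% of windows than in that of Hoxa5. This is a description of the sequence and no measurement of methylation or binding.

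The shallower pool 1 had a median of 7440 UMIs per kept cell and pool 2 had 11272. The table of pool 1 listed Xist and no Y-linked gene, whereas that of pool 2 listed Y-linked genes and not Xist, so pool and sex cannot be told apart in any difference between the pools. The pools shared 4 barcodes, of which 0 were Irx/Pax3/Hotairm1 cells. Detecting 2 genes depends on depth: the medians of Irx/Pax3/Hotairm1 cells were 10619 UMIs in pool 1 and 15424 in pool 2. Those of all cells with none were 6902 and 10450. Each Irx/Pax3/Hotairm1 cell was therefore matched to 1 cell with none within 20 depth bins of its pool. The matched cells with none had medians of 10793 and 15284.5 UMIs.

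Irx/Pax3/Hotairm1 cells were 4.31% of kept cells in pool 1 (95% interval by the Clopper-Pearson method 3.66 to 5.03) and 4.45% in pool 2 (3.77 to 5.22). The mean over pools was 4.38 ± 0.104% (SD, n = 2). With every cell thinned to 3000 UMIs the share was 1.56% in pool 1 and 0.801% in pool 2, after 757 and 657 shallower cells were left out. Intervals here and below cover counting error only. At the threshold, 102 cells of pool 1 and 113 of pool 2 had exactly 2 of the genes, and 49 and 33 had 3 or more. A single cell, in pool 1, had all 5.

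The pools differed in which genes made up the combinations. Irx5 was detected in 60.9% of Irx/Pax3/Hotairm1 cells of pool 1 and 26.0% of those of pool 2. Hotairm1 ran the other way, at 36.4% in pool 1 and 84.9% in pool 2. Pax3 was in 41.1% and 16.4%, Irx3 in 47.7% and 31.5%, and Irx2 in 54.3% and 73.3%. The pools differed in the same direction over all kept cells. There Irx5 was in 3.79% and 1.53%, Hotairm1 in 4.28% and 10.3%, and Pax3 in 2.65% and 0.854%. Irx3 was in 3.85% and 2.29% of all kept cells, and Irx2 in 3.51% and 8.57%. In pool 1 no combination dominated: the most frequent, Irx3 with Irx5, made up 14 of 151 cells (9.27%). In pool 2, 72 of 146 cells (49.3%) had Irx2 and Hotairm1 and none of the other genes, a combination found in 12 cells of pool 1.

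Background was checked in microglia-like cells, brain macrophages that should lack these genes, taken as cells with UMIs of 4 or more of 10 microglia markers. Of 19 such cells in pool 1 (median 2186 UMIs), 1 had an Irx3 UMI and 1 had a Pax3 UMI, and of 16 in pool 2 (median 6559 UMIs) none had a UMI of any of the 5. With so few and shallower cells, 0 of 19 allows a share of up to 15.8% and 0 of 16 up to 18.8% by a floor of 3 cells. The exact upper limits are 17.6% and 20.6%, and both limit cells with a UMI.

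The 5 genes were detected in the same cells more often than in other cells. In pool 1, Irx5 was detected in 36.6% of cells with Irx2 (28.1 to 45.7) and 2.6% of cells without it. Pax3 was detected in 25.6% of pool 1 cells with Irx5 and 1.75% of those without. In pool 2, Hotairm1 was detected in 33.1% of cells with Irx2 and 8.21% of those without, and Pax3 in 26.0% of cells with Irx5 and 0.465% of those without. These shares are of all kept cells and share each cell's depth.

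To read each gene without its own counts in the choice, that gene was left out. Cells with 2 or more of the other 4 genes were compared with depth-matched cells with none of the other 4, and the left-out gene was read in the fit over all genes. The fit, which was also used for all other genes below, was edgeR's quasi-likelihood test on UMI sums per pool and class, with pool as a block, and adjusted p-values are Benjamini-Hochberg over all genes tested. Levels are in CPM, the UMIs of a gene for every 1000000 UMIs of the class. The genes were picked with measurements of these same cells, so the values of a left-out gene are a description, with no p-value. Of all genes in the same fits, 0.475% were called higher with Irx2 left out, 0.581% with Irx3, 0.118% with Irx5, 0.277% with Pax3 and 0.536% with Hotairm1.

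Irx2 was at 46.1 CPM in pool 1 and 32.8 in pool 2 in cells chosen by the other genes, against 3.81 and 6.51 in cells with none. Its log2 fold change was 2.92 ± 0.41 (SE). Irx3 was at 29.3 and 12.8, against 0.755 and 1.26 (log2 fold change 4.0 ± 0.56). For Irx2 and Irx3 both pools moved the same way. Irx5 was at 57.9 and 16.9, against 1.57 and 0 in cells with none, a total of 121 UMIs against 2. That is a ratio of 58.7 in CPM (exact interval 15.9 to 490). Pax3 was at 26.0 and 6.04, against 0 in both pools, and so at least 18.2-fold higher taking a floor of 3 UMIs over both pools. Pax3 thus had no UMI in the matched cells with none of the other genes. Hotairm1 was at 15.3 in pool 1 and 64.1 in pool 2, against 4.83 and 1.02 (log2 fold change 3.28 ± 0.64), and its difference was larger in pool 2.

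**Figure D1:**
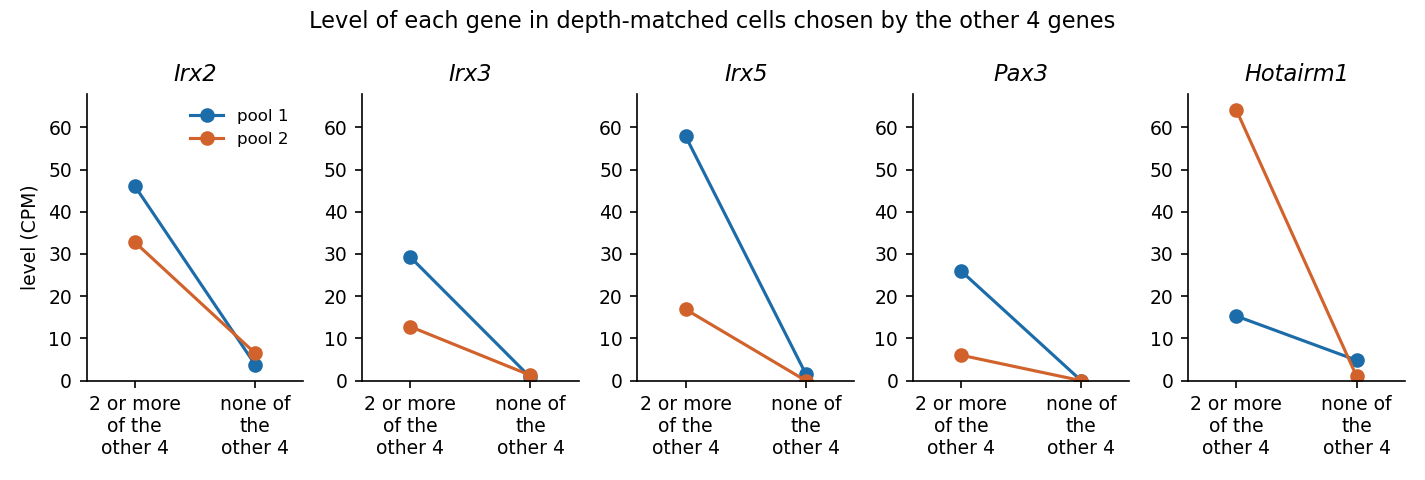
CPM of each of the 5 genes (vertical axis) in depth-matched cells with 2 or more of the other 4 genes (left) and none of them (right), 1 point per pool. Every point on the left lies above both points on the right, from 6.04 against 0 for Pax3 in pool 2 to 64.1 against 1.02 for Hotairm1 in pool 2.

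Hox genes were no part of the choice, apart from any reads shared with Hotairm1. The 11 Hox symbols listed in both pools came from the HoxA and HoxB clusters, with Hoxa5, Hoxa7, Hoxb4 and the antisense transcripts Hoxaas2 and Hoxb3os among them, and 1 further symbol was listed in each pool alone (Hoxd4 and Hoxaas3). Hox genes of these groups pattern the hindbrain and upper spinal cord of the embryo. Their UMIs summed to 83 and 78 in Irx/Pax3/Hotairm1 cells of pools 1 and 2, against 3 and 0 in the matched cells with none. The totals of 161 and 3 give a ratio of 52.0 in CPM (exact interval 17.5 to 255). This ratio rests on 1 draw of matched cells: all cells with none, at any depth, held 43 and 16 Hox UMIs, or 1.51 and 0.524 CPM. Irx/Pax3/Hotairm1 cells held 83 of the 166 Hox UMIs of pool 1 and 78 of the 122 of pool 2.

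A Hox UMI was found in 18.5% of Irx/Pax3/Hotairm1 cells of pool 1 (12.7 to 25.7) and 24.0% of those of pool 2 (17.3 to 31.7), against 0.662% and 0% of matched cells with none. Thus 123 of the 151 cells of pool 1 and 111 of the 146 of pool 2 showed no Hox UMI at this depth. Hoxa5 had 17 and 14 UMIs, against 0 in the matched cells of both pools. That is a level at least 10.0-fold higher, taking a floor of 3 UMIs over both pools. All cells with none held 12 and 1 Hoxa5 UMIs, so the 0 belongs to this draw. Hoxa5 was the 1 Hox gene to pass the filter on low counts, and it passed through the UMIs of the Irx/Pax3/Hotairm1 cells alone, so no p-value is given. The other Hox genes differed between the pools: Hoxa7 had 24 UMIs in Irx/Pax3/Hotairm1 cells of pool 1 and 2 in those of pool 2, while Hoxa3 had 3 in pool 1 and 15 in pool 2. Both were at 0 in the matched cells with none.

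Hox detection did not follow the number of genes in the same way in both pools. In pool 1 it was 0.94% of cells with 0 genes, 9.59% with 1, 24.5% with 2 and 6.12% with 3 or more. In pool 2 it was 0.519%, 4.38%, 14.2% and 57.6%. After thinning to 3000 UMIs, pool 1 gave 0.464%, 5.91%, 10.6% and 2.04%, and pool 2 gave 0.193%, 1.96%, 5.45% and 33.3%. The order of the classes was the same as at full depth in each pool.

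**Figure D2:**
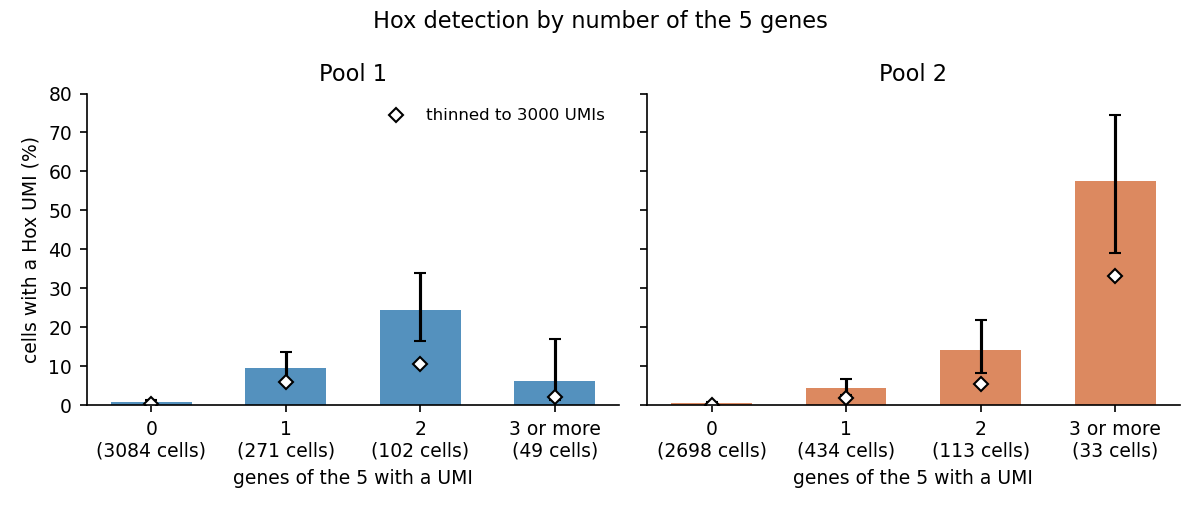
Share of kept cells with a UMI of any Hox gene (vertical axis, percent) by the number of the 5 genes with a UMI, per pool, with exact 95% intervals; diamonds are shares after thinning each cell to 3000 UMIs. The highest bar is at 2 genes in pool 1 (24.5%) and at 3 or more genes in pool 2 (57.6%).

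Over all other genes, 11412 were tested in Irx/Pax3/Hotairm1 cells against matched cells with none. At an adjusted p under 0.05, 31 were higher (0.272%) and 45 were lower (0.394%). All 76 moved the same way in both pools, which a call over 2 pools largely requires, so this is no separate support. The median log2 fold change of all genes was 0.01. The test had 6 sums and 2 residual degrees of freedom, and the tumours in a pool are not separate samples in it. Without the pool block edgeR called 0 genes either way (378 had an unadjusted p under 0.05), and with 1000 genes and 10% mitochondrial UMIs as the cell filter it also called 0 (914 under 0.05).

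The labels name PDGFB-driven glioma cells and no finer cell type. Cells were checked with 11 markers of oligodendrocyte precursor cells (OPCs), the glial progenitors that PDGF signalling expands. They summed to 11000 and 9890 CPM in Irx/Pax3/Hotairm1 cells, against 10300 and 10200 in cells with none, and 0 of the 11 passed the test. Olig2, a lineage transcription factor, was detected in 94.7% and 98.6% of Irx/Pax3/Hotairm1 cells, against 96.0% and 95.2%. Pdgfra, the receptor for PDGF ligands, was at 1300 and 1280 CPM against 1130 and 1230 (log2 fold change 0.12 ± 0.14, adjusted p = 0.899, edgeR). Of 10 microglia markers, 5 were at 0 in Irx/Pax3/Hotairm1 cells of pool 1 and 7 in those of pool 2.

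Among Iroquois genes outside the choice, Irx1 was higher. It was at 64.9 and 41.3 CPM in Irx/Pax3/Hotairm1 cells, against 17.4 and 21.9 in cells with none. The log2 fold change was 1.34 ± 0.22 (adjusted p = 0.0133, edgeR), called under 9 of 14 alternative settings. Irx1 shares its cluster with Irx2. Crnde, a noncoding transcript that starts 1.5 kb from Irx5 on the other strand, was at 20.9 and 7.57, against 1.09 and 3.53. Its log2 fold change was 2.29 ± 0.59 and it did not pass. Irx6 was at 7.86 and 2.41, against 1.09 and 1.76, and did not pass either. Crnde and Irx6 reached the filter on low counts only with the UMIs of the Irx/Pax3/Hotairm1 cells. A fold change above 0 was thus favoured for both, and no p-value is given. Irx1 was the 1 of 3 tested genes of that list that passed.

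Skap2, a cytoplasmic adaptor gene that lies 144.4 kb from Hotairm1 and next to the HoxA cluster, was also higher. Its levels were 35.1 and 27.9 CPM, against 7.08 and 5.65 (log2 fold change 2.28 ± 0.29, adjusted p = 0.00208, edgeR). It was called under 11 of 14 alternative settings. Of 9 tested neighbours of the 5 genes, Irx1 and Skap2 passed, where 0.272% of all genes were called higher. Irx1, Crnde and Irx6 are in this list and in that of the Iroquois genes, so the lists are not separate support.

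En1, which marks the midbrain and hindbrain border in the embryo, was higher, at 8.38 and 20.6 CPM against 1.63 and 2.47 (log2 fold change 2.81 ± 0.46, adjusted p = 0.0118, edgeR; called under 8 of 14 alternatives). An En1 UMI was in 8.61% and 21.9% of Irx/Pax3/Hotairm1 cells, against 1.99% and 4.79% of cells with none. En1 in matched cells with 1 of the 5 genes was at 8.74 and 13.8 CPM, with a UMI in 10.3% and 15.8%. In pool 1 En1 was thus not higher in Irx/Pax3/Hotairm1 cells than in cells with 1 gene. Its paralogue En2 was at 13.1 and 6.19, against 3.81 and 2.12, and did not pass. En2 reached the filter on low counts only with the UMIs of the Irx/Pax3/Hotairm1 cells, so no p-value is given. Of 8 tested midbrain and hindbrain genes, En1 was the 1 that passed.

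Of 11 tested forebrain genes, 1 passed, Lhx2, a LIM-homeodomain factor of the cortical primordium. It was at 10.5 and 6.19 CPM in Irx/Pax3/Hotairm1 cells, against 29.4 and 21.2 (log2 fold change -1.64 ± 0.28, adjusted p = 0.0158, edgeR; called under 7 of 14 alternatives). Dmrta2, another cortical regulator, was at 3.14 and 3.10, against 19.6 and 9.18 (adjusted p = 0.0667). Emx2 had too few UMIs for the test, with a UMI in 0.662% and 0% of Irx/Pax3/Hotairm1 cells, against 3.31% and 12.3%. Six3, of the anterior forebrain and eye field, was at 9.43 and 43.4, against 6.54 and 25.1, and did not pass (adjusted p = 0.332). The forebrain genes thus did not all lie on the same side: 6 of 11 fold changes were below 0 and the median was -0.22.

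A list of cofactors held Meis, Pbx and Pknox genes, whose proteins bind DNA with Hox proteins, and also Tgif1, Tgif2 and Mkx. In that list 0 of 9 tested passed. Meis2 had the largest fold change, at 82.2 and 102 CPM against 151 and 129 (log2 fold change -0.59 ± 0.17, adjusted p = 0.2). Of 5 tested genes of back-to-belly patterning and 9 of retinoid signalling, which sets Hox expression in the embryo, 0 passed in either list.

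**Figure D3:**
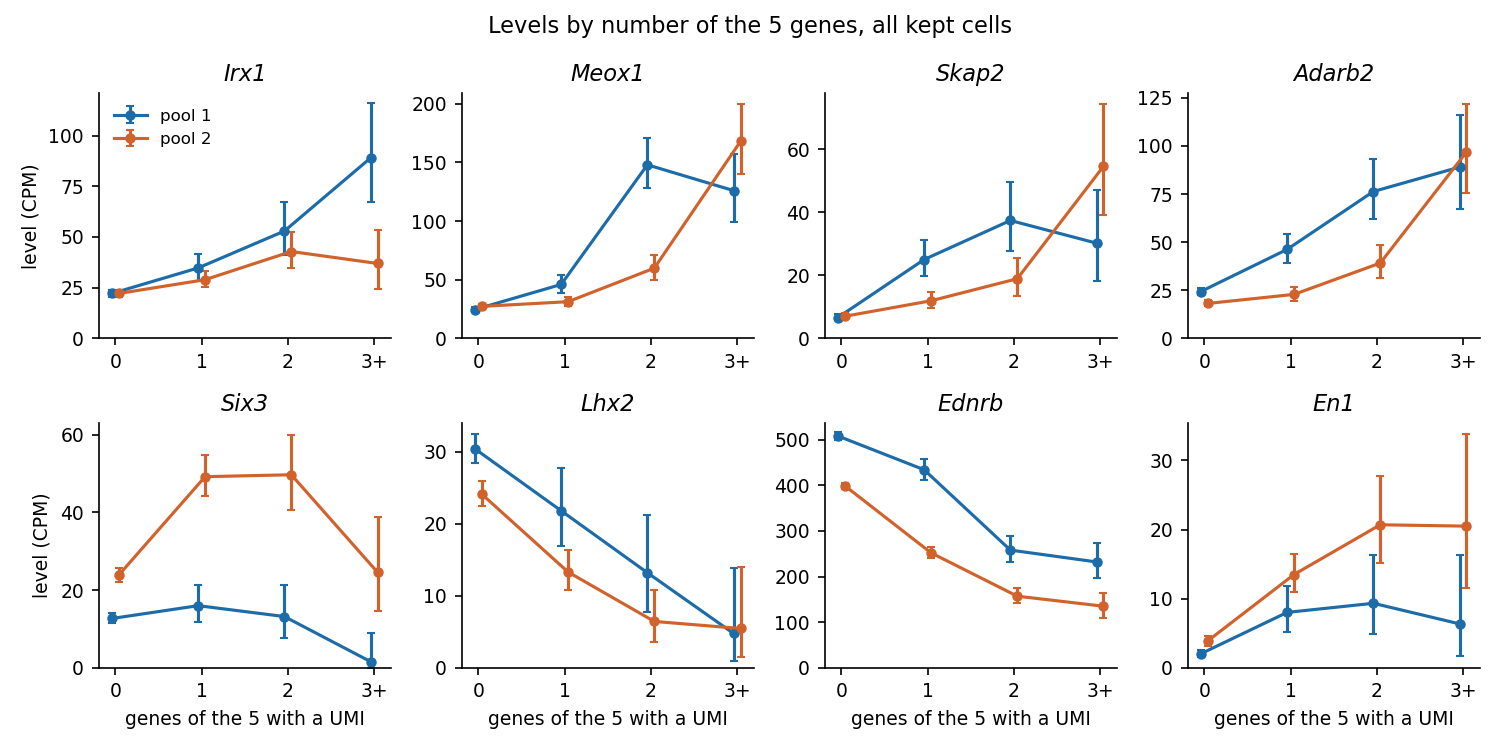
CPM of 8 genes outside the choice (vertical axes) by the number of the 5 genes with a UMI, over all kept cells of each pool, with exact Poisson 95% intervals. Lhx2 and Ednrb are highest in cells with 0 genes in both pools, while Meox1 in pool 2 reaches 168 in cells with 3 or more genes and 31.2 in cells with 1.

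Outside the lists of regional genes, Meox1, a homeobox gene known from somite development, was higher. It was at 141 and 87.1 CPM in Irx/Pax3/Hotairm1 cells, against 25.6 and 23.3 (log2 fold change 2.15 ± 0.17, adjusted p = 5.18e-05, edgeR), and was called under 12 of 14 alternatives. A Meox1 UMI was in 62.9% and 52.1% of Irx/Pax3/Hotairm1 cells, against 16.6% and 19.2%. Cells with 1 of the 5 genes, just outside the threshold, had 40.4 and 31.7 CPM.

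Car2, carbonic anhydrase 2, had the largest fold change among the higher genes with a mean of at least 20 CPM, at 202 and 66.1, against 8.72 and 13.4 (log2 fold change 3.26 ± 0.49, adjusted p = 0.00634). It was called under 6 of 14 alternatives, and cells with 1 of the genes split by pool, at 67.2 and 4.88. Adarb2, a brain relative of the RNA-editing adenosine deaminases, was at 80.6 and 53.7, against 18.0 and 14.5 (log2 fold change 2.01 ± 0.19, adjusted p = 0.000183), and Gng11, a G protein gamma subunit, was at 47.7 and 53, against 10.9 and 14.5 (log2 fold change 1.98 ± 0.22, adjusted p = 0.00118). Both were called under 12 of 14 alternatives. The levels of these 3 genes did not overlap between the groups, which a call over 2 pools favours, so this is no separate support.

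Gjc3, a glial connexin, was also higher, at 229 and 118 CPM against 93.2 and 50.1 (adjusted p = 0.000846, edgeR), and Gria4, an AMPA-type glutamate receptor subunit, at 346 and 213 against 136 and 111 (adjusted p = 0.00208). Gria4 was the 1 of 19 tested synaptic and channel genes that passed. C1ql2, a secreted synaptic protein, was at 123 and 78.5 against 42.5 and 42.0, and Ajap1, an adherens junction protein, at 64.4 and 74.3 against 27.2 and 32.5. Log2 fold changes of these 4 genes were 1.25 ± 0.14, 1.12 ± 0.14, 1.19 ± 0.17 and 1.21 ± 0.17. Ptgfrn, a membrane glycoprotein, reached 278 in pool 2 but 107 in pool 1, against 69.7 in pool 1 and 77.3 in pool 2 for cells with none. It was called under 3 of 14 alternatives.

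Also higher were Aldoc, a glycolytic enzyme of astrocytes and radial glia, at 303 and 563 CPM against 135 and 256 (log2 fold change 1.14 ± 0.13), and Rhoj, a small GTPase, at 38.8 and 90.5 against 15.8 and 31.8 (1.45 ± 0.20). Rhoj in cells with 1 of the 5 genes was at 32.2 and 99.7, above the Irx/Pax3/Hotairm1 cells in pool 2. It was called under 9 of 14 alternatives, and not with 3 or more genes as the choice. Erbin (a scaffold of ErbB2), Ndn (the imprinted gene for necdin), Cnn2 (an actin-binding calponin) and Sat1 (a polyamine acetyltransferase) had log2 fold changes of 1.34, 1.16, 1.14 and 1.13. Tubb3, a tubulin of young neurons, was at 63.4 and 97.0, against 36.0 and 47.7 (log2 fold change 0.93 ± 0.16, adjusted p = 0.0157, edgeR), while 1 of 5 tested neuron markers passed in all.

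**Figure D4:**
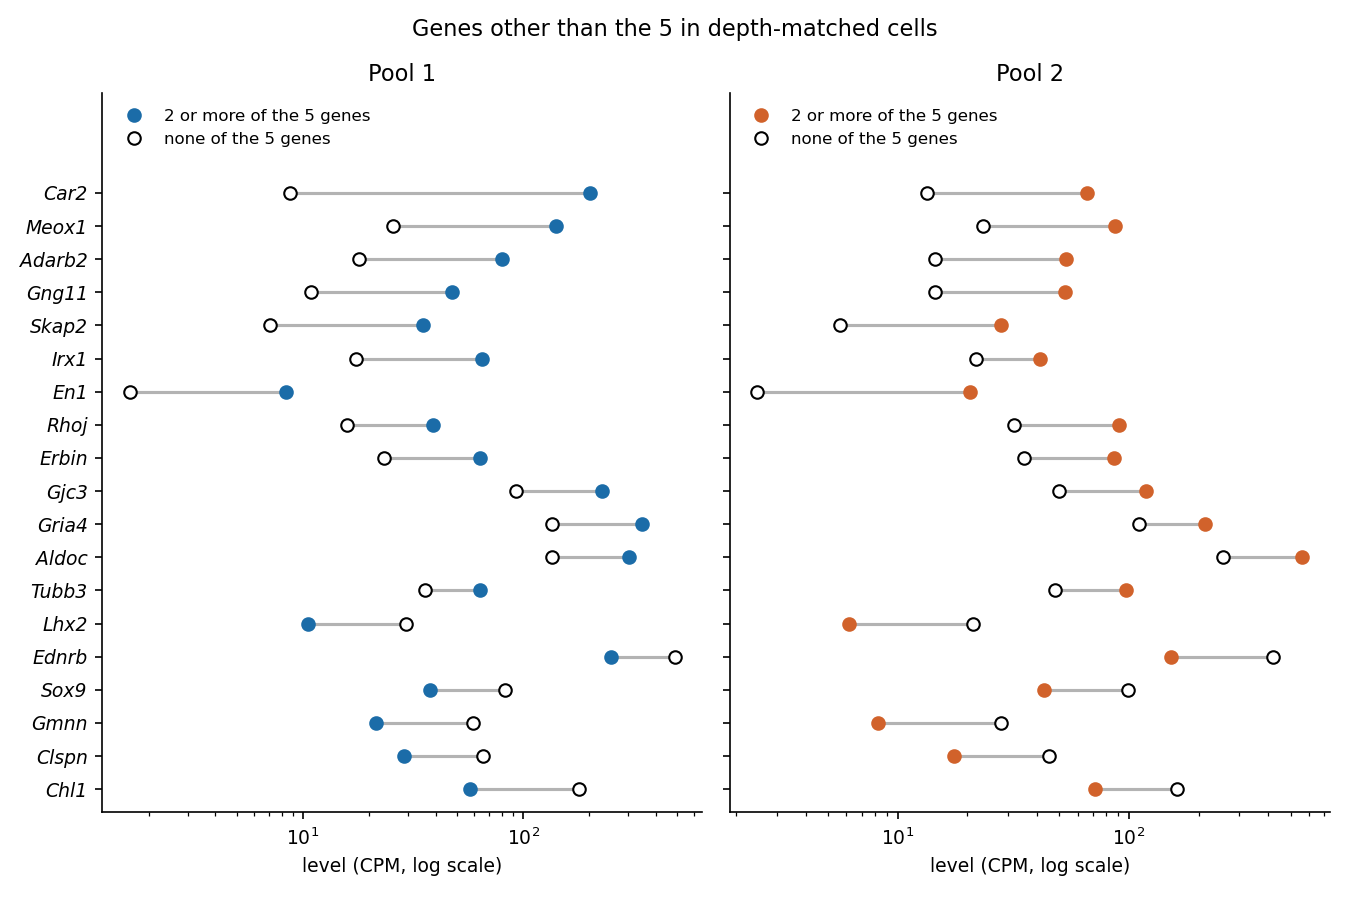
CPM (horizontal axis, log scale) of 19 genes that passed the test, in Irx/Pax3/Hotairm1 cells (filled) and depth-matched cells with none of the 5 genes (open), per pool. In both pools the filled point lies right of the open one from Car2 to Tubb3 and left of it from Lhx2 to Chl1.

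Of the named lower genes, Ednrb was called under the most alternatives. It encodes the endothelin B receptor of glial progenitors and neural crest, and was at 250 and 152 CPM in Irx/Pax3/Hotairm1 cells, against 490 and 421 (log2 fold change -1.24 ± 0.14, adjusted p = 0.00118, edgeR; 12 of 14 alternatives). Chl1, a cell adhesion molecule of the L1 family, was at 57.1 and 71.2, against 179 and 161 (log2 fold change -1.38 ± 0.20, adjusted p = 0.0054; 10 of 14). Sox9, a factor of radial glia and astrocytes, was at 37.7 and 43.0, against 82.8 and 99.2 (log2 fold change -1.18 ± 0.18, adjusted p = 0.00856; 8 of 14). These 3 genes did not overlap between the groups. Of 9 tested astrocyte and radial glia markers, Sox9 was lower and Aldoc higher, and 7 did not pass.

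DNA replication genes lay lower as a list: all 30 tested S phase genes had a log2 fold change below 0, with a median of -0.91, and 6 passed. Within pools, 27 of the 30 lay below 0 in pool 1 and all 30 in pool 2. The 6 were Mcm3, Mcm6 and Mcm7 (subunits of the replicative helicase), Gins2 (its partner), Gmnn (geminin, which restrains origin licensing) and Clspn (claspin, a replication checkpoint mediator). Gmnn was at 21.5 and 8.26, against 59.4 and 27.9 (log2 fold change -1.61 ± 0.22, adjusted p = 0.00402, edgeR), and Clspn at 28.8 and 17.5, against 65.9 and 45.2 (log2 fold change -1.29 ± 0.18, adjusted p = 0.00402). Both were also low in cells with 1 of the 5 genes, Gmnn at 19.1 and 8.14 and Clspn at 35.5 and 22.4. Low levels of these genes were thus not particular to Irx/Pax3/Hotairm1 cells. Without cells carrying markers of other types, 2 of the 30 passed and the median was -1.09. With another draw of matched cells 2 passed. Under the DESeq2 Wald test, no depth matching, the stricter cell filter, removal of the highest doublet scores, up to 5 cells with none per member or no pool block, 0 passed, while all 30 lay below 0. With Hotairm1 left out of the choice 0 passed, 28 of 30 lay below 0 and the median was -0.38. In cells without mitotic genes 0 of 17 tested passed, 16 lay below 0 and the median was -0.32.

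Among 10 genes of mitosis, 0 passed and the median was 0.10, but the pools lay on opposite sides. All 10 were higher than in cells with none in pool 1 (median log2 fold change 0.85) and all 10 lower in pool 2 (median -0.88). With Hotairm1 left out of the choice, 3 of the 10 passed as higher and the median was 0.85. Cells with UMIs of 2 or more of those 10 were 34.4% and 20.5% of Irx/Pax3/Hotairm1 cells, against 35.1% and 31.5% of cells with none.

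Of the 45 lower genes, 12 were markers of microglia or oligodendrocytes. All 8 tested microglia markers were lower, C1qa with 1 UMI in Irx/Pax3/Hotairm1 cells against 269 in cells with none and Ctss with 1 against 171. These markers passed the filter on low counts through the UMIs of the cells with none, so their calls are a description. The 10 microglia markers summed to 3.66 and 1.72 CPM, against 492 and 112. Of 5 tested oligodendrocyte markers, 4 were lower, Mbp, Mag and Cldn11 among them, and the 10 on the list summed to 385 and 121, against 959 and 1650. Mag also passed the filter through the UMIs of the cells with none, so its call is a description. Erythroid genes in pool 2 summed to 0.344, against 848. The matched cells with none held 2 cells in pool 1 and 4 in pool 2 with many UMIs of such markers. Without all cells of that kind, chosen after seeing these values, 24 genes were higher and 12 lower, of which 22 and 12 were among the 31 and 45. In that fit 0 microglia markers had enough UMIs to be tested, and 1 of 3 tested oligodendrocyte markers was lower. Enpp6, of newly committed oligodendrocytes, was at 18.9 and 0, against 68.6 and 25.8 (adjusted p = 0.0241), and was 1 of 8 tested genes of that stage that passed.

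Irx/Pax3/Hotairm1 cells were not uniform, and in pool 2 the combination of genes divided them. The 72 cells with Irx2 and Hotairm1 alone had a Hox UMI in 5.56% (1.53 to 13.6), against 41.9% (30.5 to 53.9) of the other 74. Six3 was at 64.7 CPM in the Irx2 and Hotairm1 cells (exact Poisson interval 52.7 to 78.6) and 18.6 in the others (12 to 27.4). Skap2 was at 15.4 (9.85 to 22.9) and 42.4 (32.1 to 54.9). Meox1 was at 32.7 (24.3 to 42.9) and 150 (130 to 172), and Car2 at 14.1 (8.83 to 21.3) and 126 (108 to 147). En1 was at 20.5 (14.0 to 28.9) and 20.8 (13.8 to 30.1). For Hox, Six3, Skap2, Meox1 and Car2 the intervals of these sets of cells lay apart, while those of En1 overlapped almost fully. These intervals take each UMI or cell as independent, and so are no test of a difference between the sets. The cells of a set come from 1 pool, so no test was made, and the split was chosen after seeing the combinations.

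In pool 1 the same split ran as in pool 2 for Six3 and Car2, and not for Hox, Skap2 and Meox1. Its 12 cells with Irx2 and Hotairm1 alone had a Hox UMI in 41.7% (15.2 to 72.3), against 16.5% (10.8 to 23.8) of the other 139. Skap2 was at 55.5 CPM (22.3 to 114) and 33.6 (25.6 to 43.2), and Meox1 at 190 (122 to 283) and 137 (120 to 155). Six3 was at 55.5 (22.3 to 114) and 6.15 (3.07 to 11), and Car2 at 87.2 (43.5 to 156) and 210 (189 to 232). These intervals, with 12 cells on 1 side, again cover counting error only.

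**Figure D5:**
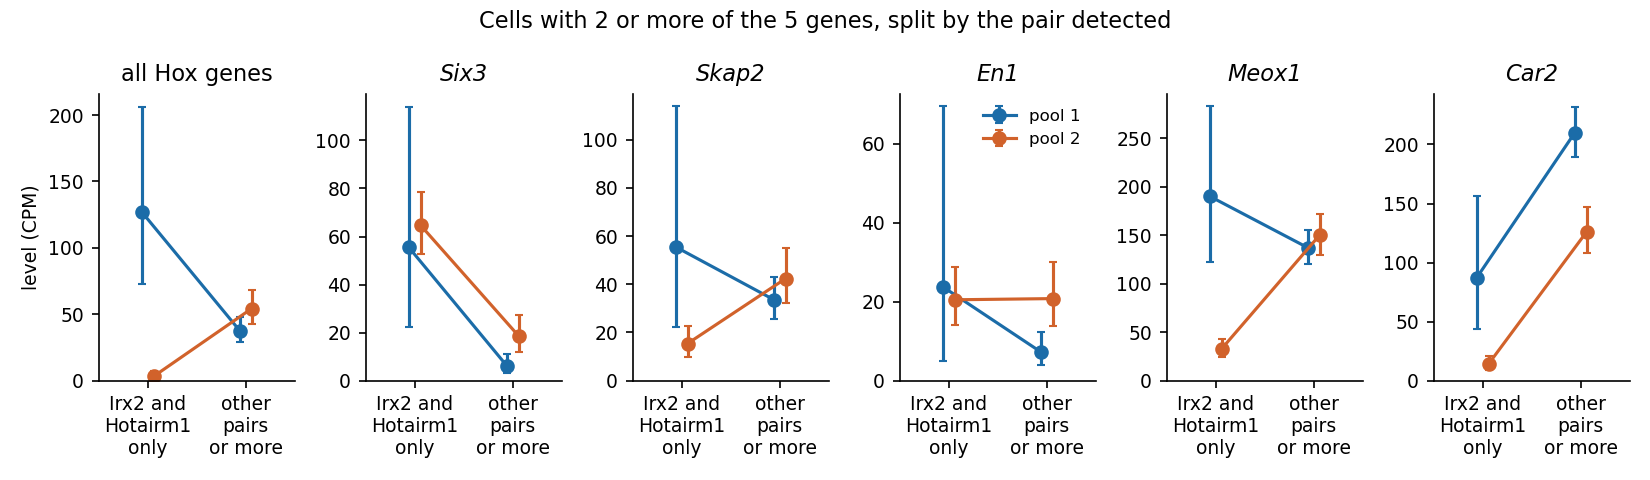
CPM of all Hox genes and 5 other genes (vertical axes) in Irx/Pax3/Hotairm1 cells with Irx2 and Hotairm1 alone (left) and with other combinations (right), with exact Poisson 95% intervals. In pool 2 Meox1 is at 32.7 on the left and 150 on the right, and in pool 1 at 190 and 137.

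A split of pool 2 by Irx5 re-sorted much the same cells. The 72 cells with Irx2 and Hotairm1 alone all lay among the 108 without Irx5. A likeness to the split by combination is therefore largely built in and is no separate support. The 38 Irx/Pax3/Hotairm1 cells with Irx5 had a Hox UMI in 57.9% (40.8 to 73.7), against 12% (6.57 to 19.7) of the 108 without. Six3 was at 14.9 CPM (6.43 to 29.4) with Irx5 and 49.8 (41.2 to 59.6) without, and Skap2 at 65.2 (45.4 to 90.7) and 19.4 (14.2 to 25.9). Cells with Irx5 were thus lower in Six3 and higher in Hox and Skap2 than those without, with intervals for counting error only and no test. In pool 1 the 92 cells with Irx5 had a Hox UMI in 16.3% (9.42 to 25.5), against 22.0% (12.3 to 34.7) of the 59 without, and Six3 was at 7.63 CPM (3.49 to 14.5) and 12.3 (5.6 to 23.3).

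Hox and engrailed genes were seldom read from the same cell in pool 2. Of 35 Irx/Pax3/Hotairm1 cells with a Hox UMI, 5.71% (0.7 to 19.2) had an En1 or En2 UMI, against 34.2% (25.5 to 43.8) of the 111 without one. In pool 1 the shares with En1 or En2 were 17.9% (6.06 to 36.9) of 28 cells with Hox and 22.0% (15 to 30.3) of 123 without. Measured this way, the name posterior matched Hox detection in part of the cells: in pool 2 those with Irx2 and Hotairm1 alone had the forebrain gene Six3 at 64.7 CPM, against 25.1 in matched cells with none, and a Hox UMI in 5.56%.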

How the data were processed

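Single-cell RNA was measured with 10x Genomics 3' v3.1 chemistry, per the labels' protocols. The authors deposited raw UMI counts per gene and barcode for each pool, made with Cell Ranger 6.0.2 on GRCm38 (mm10), per the submitters' processing notes. The filter that chose the deposited barcodes is not given in the sources used here. Totals were 33894255 and 40909383 UMIs in 3843 and 3650 barcodes. Of these, 337 and 372 were removed by the filter of 500 genes and 15% mitochondrial UMIs.

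The members and lists were chosen with earlier results of these data known. Counts were summed per pool and class (Irx/Pax3/Hotairm1 cells, 1 gene, none), matched in 20 depth bins, and tested with edgeR 4.0.16 (quasi-likelihood, TMM, filterByExpr, pool block, Benjamini-Hochberg). The pool block is used because the classes of a pool come from the same tumours. The scripts were tested on simulated data. DESeq2 1.42.0 was an alternative. The 2 pools are the replicates, and whether they are separate litters or runs is not in the labels, so p-values measure the spread between these sums. Levels are CPM of a sum. Doublets were kept: Scrublet in scanpy 1.11.5 marked 1 and 4 cells, which is too few to have worked, so an alternative removed the 98 and 86 highest scores. Named genes were the 15 of largest fold each way among called genes with a mean of at least 20 CPM and the same direction in both pools, the called or largest-fold genes of the regional lists (up to 6), and up to 4 genes of smallest p in every other list. Of 18366 symbols, 18082 matched GENCODE vM21. Results of some genes are not reported here.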

Additional observations from a re-analysis of the deposited data

How the results depend on the processing

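Depth limits detection: thinning to 3000 UMIs lowered the mean share of Irx/Pax3/Hotairm1 cells to 1.18%. The share was 4.91% with 1000 genes and 10% mitochondrial UMIs and 1.20% with 3 or more genes, and 4.31 to 4.45% with either pool left out. Cells with Xist among those of pool 1 were 100% with 3 or more genes.

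Against 31 higher and 45 lower genes, the DESeq2 Wald test called 17 and 13, no filter on low counts 137 and 187, another draw of matched cells 18 and 7, 4 sums in the fit 19 higher, no depth matching 10 lower, and 2 or more of the genes other than Hotairm1 53 and 73. Without the highest doublet scores 9 and 2 were called, and in cells without mitotic genes 59 were higher. With up to 5 cells with none per member, and without cells of other types (both chosen after seeing the data), 12 were lower. The stricter cell filter gave 0 and 0 (914 at an unadjusted p under 0.05, smallest adjusted p 0.0861), although all 64 called genes it tested kept their direction. Without the pool block, that is without the replicate block, edgeR called 0 and 0 (378 at an unadjusted p under 0.05).

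The fits with 1 of the 5 genes left out are a description. No call of the left-out gene is used, since it changed with the setting. Log2 fold changes without the replicate block were 2.91 (Irx2), 4.13 (Irx3), 5.88 (Irx5), 7.94 (Pax3) and 3.48 (Hotairm1). With another draw they were 2.89 (Irx2), 3.46 (Irx3), 8.94 (Irx5) and 4.14 (Pax3). Pax3 was at 3.59 with the stricter cell filter. With either pool left out, values had no test and ranged over 2.06 to 3.08 for Irx2, 2.57 to 3.99 for Irx3, 4.12 to 4.44 for Irx5, 2.86 to 4.75 for Pax3 and 1.33 to 4.60 for Hotairm1.

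Log2 fold changes turned positive for Enpp6 (0.09) and Mbp (0.64) when Hotairm1 was left out of the choice. Six3 turned negative, at -0.84 without Hotairm1, -0.34 with 3 or more genes and -0.12 in cells without mitotic genes. The cause of each change was not tested. Fits of cells with Xist alone or with Y-linked genes alone were not run, since each leaves 1 pool.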

Other observations

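Several other programmes had no gene past the test between Irx/Pax3/Hotairm1 cells and cells with none of the 5 genes. Of 13 tested output genes of MAPK signalling, which growth factor receptors switch on, 0 passed the test (edgeR quasi-likelihood), 12 had a fold change above 0 and the median log2 fold change was 0.26. Etv5, an ETS factor of that list, was at 140 and 131 CPM, against 68.1 and 99.2 (adjusted p = 0.0729). Of 14 tested hypoxia genes, 14 interferon genes, 10 Notch genes and 12 p53 target genes, 0 passed in each list, with medians of 0.17, 0.34, -0.01 and 0.02. Of 89 tested ribosomal protein genes and pseudogenes, 85 had a fold change below 0, with a median of -0.26 and 0 calls; with 2 or more of the 4 genes other than Hotairm1 as the choice, 51 of 89 were lower, among 73 lower genes of 10265 tested. With 3 or more of the 5 genes as the choice, 18 of 85 were lower, among 38 of 8827.

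Pdgfb, the gene of the ligand, was at 24.1 and 45.8 CPM in Irx/Pax3/Hotairm1 cells, against 31.1 and 26.1 (adjusted p = 0.84). Nr2f2, a nuclear receptor of caudal telencephalon, split by pool: it was at 25.7 and 18.9, against 1.63 in pool 1 and 25.1 in pool 2 (adjusted p = 0.796). Xist was detected in 99.3% of Irx/Pax3/Hotairm1 cells of pool 1, against 93.4% of cells with none.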
